A study of Mus musculus with 2 samples.

Results

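The MHC class II genes and Ciita were followed in small macrophages of the peritoneal cavity (small peritoneal macrophages), which were sorted from endotoxemic mice. The genes were chosen by name, as listed members of the class II presentation pathway, and matched through their Ensembl identifiers. All 10 were found among the 55487 genes of the count table, and 9 of them had 50 or more counts in each library. The tenth, H2-Oa, had fewer. The animals were male mice of the outbred SWISS stock, 5 weeks old, all of which received 20 mg/kg lipopolysaccharide (LPS, a bacterial cell wall component) from Escherichia coli O55:B5 into the peritoneum, 30 mL/kg saline under the skin 6 h later, and were killed 22 h after LPS. The LPS group was 102283 cells pooled from 7 mice. The LPS+LCC-12 group was 66967 cells pooled from 8 mice that also received 0.3 mg/kg LCC-12, a compound known to bind mitochondrial copper, into the peritoneum 6 h after LPS. Each group was 1 library, so the differences below are between those libraries, no test was possible, and the intervals given cover counting error only. Mice without LPS were not analysed here.

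MHC class II molecules are pairs of an alpha and a beta chain that display peptides from ingested material to CD4 T cells, and they are carried by macrophages, dendritic cells and B cells. In the mouse, H2-Aa and H2-Ab1 encode the chains of one such molecule and H2-Eb1 the beta chain of another. Cd74 encodes the invariant chain, which fills the groove of new class II molecules until the H2-DM heterodimer exchanges its remnant for peptide, and the H2-O heterodimer restrains H2-DM. Ciita encodes the coactivator that sets class II transcription: it binds no DNA itself but docks on proteins that sit on paired X and Y boxes in front of these genes. Small peritoneal macrophages are known for high surface class II in healthy mice. Which markers defined the sort is not given here, so whether a class II antibody was part of the gate is not known.

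The promoter stretches are shown here because they carry the X and Y boxes that the class II genes share. RefSeq windows (build GRCm38.p6) matched 7 of the 10 members, and H2-Ab1, Cd74 and Ciita were not matched. The 250 bases before each start were searched on both strands for the X box core GCAAC and the Y box ATTGG. A pair was counted when the core came first and the starts were 25 to 40 bases apart. The pair was present for H2-Aa, H2-Eb1, H2-Oa and H2-Ob, and in 0.673% of the 32851 promoter windows of all genes. Single matches were common, with ATTGG in 33.8% and GCAAC in 29.9% of all windows. In capitals are the X box core and the Y box, each written 5′ to 3′ on the strand of its gene.
H2-Aa, chr17:34287847-34287924, minus strand: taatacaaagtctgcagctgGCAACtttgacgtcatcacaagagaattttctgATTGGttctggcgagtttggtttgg
H2-Eb1, chr17:34305756-34305832, plus strand: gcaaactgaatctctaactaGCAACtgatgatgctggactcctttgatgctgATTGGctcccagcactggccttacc
H2-Oa, chr17:34092283-34092360, plus strand: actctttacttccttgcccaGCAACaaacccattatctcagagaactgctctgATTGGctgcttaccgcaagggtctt
H2-Ob, chr17:34238798-34238872, plus strand: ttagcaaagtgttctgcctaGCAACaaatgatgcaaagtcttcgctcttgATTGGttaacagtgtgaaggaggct

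The starts of the X box core and the Y box were 33 bases apart for H2-Aa and H2-Oa, 32 for H2-Eb1 and 30 for H2-Ob. The Y boxes began 48, 43, 59 and 57 bases before the RefSeq starts of H2-Aa, H2-Oa, H2-Eb1 and H2-Ob. GENCODE starts H2-Oa further upstream, and 21 bases of the H2-Oa stretch lie in its first GENCODE exon. H2-DMb1 and H2-DMb2 had a Y box without GCAAC before it. With only the last letters of the core kept (NNAAC), a search added after these windows were seen, both had a pair at 33 bases, and 7.09% of all windows did. They are shown because the cores differ between these neighbouring genes. For H2-DMb1, whose pair lies inside the first exon of the GENCODE annotation, only the core and its surroundings are printed. The H2-DMb2 stretch holds no GENCODE exon base but lies inside the gene as GENCODE bounds it, since a longer transcript starts upstream. H2-DMa, with 2 windows, had no pair under either search.
H2-DMb2, chr17:34145106-34145183, plus strand: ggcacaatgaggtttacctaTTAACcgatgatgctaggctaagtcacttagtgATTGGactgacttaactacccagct
H2-DMb1, chr17:34153087-34153116, plus strand: ggtttacctaGTAACtgatgatgctaggct

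The libraries held 50618409 counts (LPS) and 47721888 counts (LPS+LCC-12). Levels are given as CPM, counts relative to library size after TMM scaling, and ratios are LPS+LCC-12 over LPS on the log2 scale. The size rule asked for a difference of 2-fold or more, with no fewer than 50 counts in whichever library was higher. Over all 13482 genes with that many counts, 4.01% were higher by this rule, 6.65% were lower, and the median log2 ratio was 0.02. The cells are labelled as macrophages, and markers of macrophages and of neutrophils were both abundant: the macrophage list summed to 6454 CPM with LPS and 7886 CPM with LPS+LCC-12, and the neutrophil list to 8401 and 2999 CPM. Lyz2 and Itgam, in the macrophage list, are also expressed by neutrophils. Within the neutrophil sums, S100a9 gave 3913 and 1464 CPM, S100a8 1006 and 457 CPM, and Ly6g 13.3 and 5.69 CPM. Csf1r, the receptor for a macrophage growth factor, had 22001 and 31384 counts, and Ccr2, a marker of the monocyte-derived population, had 18229 and 17434. Over the macrophage list, 3 genes, Csf1r among them, had ratios above 0 and 4 below, with a median log2 ratio of -0.02.

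Of the 9 class II members with 50 or more counts, 5 were at least 2-fold higher in the LPS+LCC-12 library (against 4.01% of all genes), none passed the rule as lower (against 6.65% of all genes) and 4 lay inside the limit. The 5 were H2-Aa, H2-Ab1, H2-Eb1, H2-DMa and Cd74. The chains that present peptide, the invariant chain and the H2-DM genes had ratios above 0, the H2-O genes had ratios below 0, and Ciita lay between. The median log2 ratio over the 9 genes was 1.02. Summed over all 10 members, the level was 550 CPM after LPS and 1129 CPM after LPS+LCC-12, a 2.05-fold difference. Cd74 made up 65.0% of the members' counts under LPS alone and 64.4% with LCC-12 added, with exact 95% binomial intervals of 64.4% to 65.6% and 64.0% to 64.8%. In bulk libraries such as these, fewer cells of a type and less RNA per cell cannot be told apart.

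**Figure D1:**
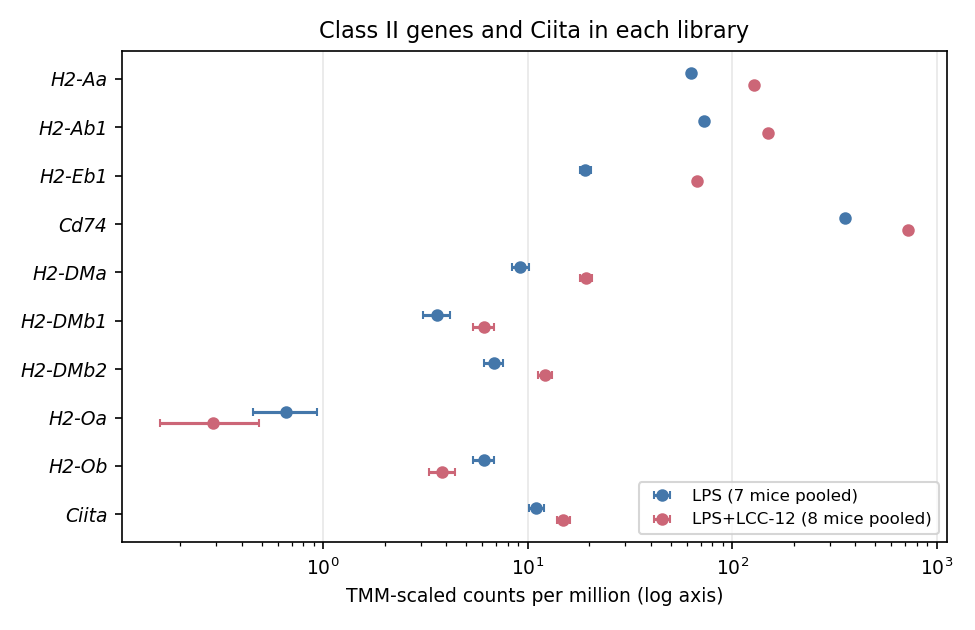
Level of each class II gene and Ciita in the LPS and LPS+LCC-12 libraries, as TMM-scaled CPM on a log axis. Points are single libraries and bars are exact 95% Poisson intervals of the counts, hidden by the point where narrow. H2-Oa and H2-Ob lie lower with LPS+LCC-12 and the other 8 genes lie higher.

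The classical chains H2-Aa and H2-Ab1 were each about 2-fold higher with LCC-12. H2-Aa, the alpha chain (chromosome 17, 34282744 to 34287823, minus strand, GRCm38), had 3155 counts after LPS and 6207 after LPS+LCC-12, or 63.2 and 128 CPM. Its log2 ratio was 1.02 (0.96 to 1.08), a 2.03-fold difference. H2-Ab1, the beta chain of the same molecule (34257689 to 34269419, plus strand), had 3637 and 7231 counts, or 72.8 and 149 CPM, and a log2 ratio of 1.04 (0.98 to 1.10). The proportion of alpha to beta chain differed little: H2-Aa had 0.867 counts per H2-Ab1 count after LPS and 0.858 after LPS+LCC-12, a change of 0.990-fold (0.933 to 1.05). That proportion needs no scaling between libraries.

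H2-Eb1, the beta chain of the H2-E molecule (34305867 to 34316674, plus strand), differed more than any other member. It had 956 counts after LPS and 3258 after LPS+LCC-12, or 19.1 and 67.4 CPM, and was 3.52-fold higher (3.27 to 3.79). Its log2 ratio of 1.81 (1.71 to 1.92) was the 136th highest of the 13482 genes, whereas H2-Ab1 was 490th, Cd74 506th and H2-Aa 511th. Relative to H2-Ab1 in the same library, H2-Eb1 went from 0.263 to 0.451 counts per count, a 1.71-fold change (1.58 to 1.86). H2-Eb1 was the only member whose whole counting interval lay beyond 2-fold.

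The other loci of this family lay within 2-fold. H2-Ea-ps, the alpha chain partner of H2-Eb1, is annotated as a polymorphic pseudogene because some mouse strains lack a working copy. It had 115 and 172 counts and a log2 ratio of 0.62 (0.28 to 0.98). H2-Eb2, a second H2-E beta gene, had 66 and 67 counts and a log2 ratio of 0.07 (-0.44 to 0.58). Its window held the GCAAC and ATTGG pair at 32 bases, the same distance as that of H2-Eb1. Class II genes are among the most variable between mouse strains, the reads were placed on the mm10 reference, and each pool held different outbred mice. How many reads were lost to allelic differences in each pool was not tested.

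Cd74, the invariant chain (chromosome 18, 60803848 to 60812652, plus strand), was the most abundant member. It had 17850 counts after LPS and 35183 after LPS+LCC-12, or 357 and 727 CPM, and a log2 ratio of 1.03 (0.999 to 1.05). Per count of H2-Aa and H2-Ab1 together, Cd74 had 2.63 counts after LPS and 2.62 after LPS+LCC-12, a change of 0.996-fold (0.962 to 1.03). The interval of that change included no difference.

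The H2-DM genes, whose product loads peptide onto class II in endosomes, were all above 0. H2-DMa, the alpha chain (chromosome 17, 34119541 to 34139101), had 460 counts after LPS and 935 after LPS+LCC-12, or 9.21 and 19.3 CPM, and a log2 ratio of 1.07 (0.91 to 1.23). H2-DMb1 (34153072 to 34160230) had 179 and 295 counts and a log2 ratio of 0.77 (0.49 to 1.04). H2-DMb2 (34143307 to 34151555) had 340 and 587 counts and a log2 ratio of 0.83 (0.64 to 1.03). The beta chain genes were thus within 2-fold, with intervals that passed 2-fold at their upper ends. Of all 100-base stretches in the annotated H2-DMb1 transcripts, 11.3% were also present in those of H2-DMb2, so reads could be shared between this pair. The counts of H2-DMb1 per count of H2-DMb2 were 0.526 and 0.503, a change of 0.955-fold (0.755 to 1.21). Summed, the H2-DM genes had 0.144 counts per H2-Aa and H2-Ab1 count after LPS and 0.135 after LPS+LCC-12 (0.938-fold, 0.863 to 1.02).

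The H2-O genes, whose product inhibits H2-DM, were the members with ratios below 0. H2-Ob, the beta chain (34238903 to 34254414), had 304 counts after LPS and 185 after LPS+LCC-12, or 6.09 and 3.82 CPM. It was 1.59-fold lower (1.32 to 1.92), within the 2-fold limit. H2-Oa, the alpha chain (34092340 to 34095234), had 33 and 14 counts, or 0.661 and 0.289 CPM, and a log2 ratio of -1.16 (-2.21 to -0.25) on too few counts for the rule. Taken per count of the 3 H2-DM genes, H2-Oa and H2-Ob together had 0.344 counts after LPS and 0.110 after LPS+LCC-12. This inhibitor to loader proportion was 3.14-fold lower with LCC-12 (2.58 to 3.83), without any scaling. H2-Oa and H2-Ob carry a GCAAC and ATTGG pair, as do H2-Aa and H2-Eb1, at the distances given above. Whether the pair bears on any of these ratios was not tested.

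Ciita (chromosome 16, 10480059 to 10528418, plus strand) differed less than the genes it controls. It had 549 counts after LPS and 721 after LPS+LCC-12, or 11.0 and 14.9 CPM, and a log2 ratio of 0.44 (0.28 to 0.60), a 1.36-fold difference within the 2-fold limit. Per count of H2-Aa and H2-Ab1, Ciita was 1.51-fold lower with LCC-12 (1.34 to 1.69). The gene table gives 1 value for all Ciita transcripts, so its cell type-specific promoters could not be separated. Dexi, on the opposite strand, shares 329 exon bases with Ciita, and had 121 and 143 counts.

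**Figure D2:**
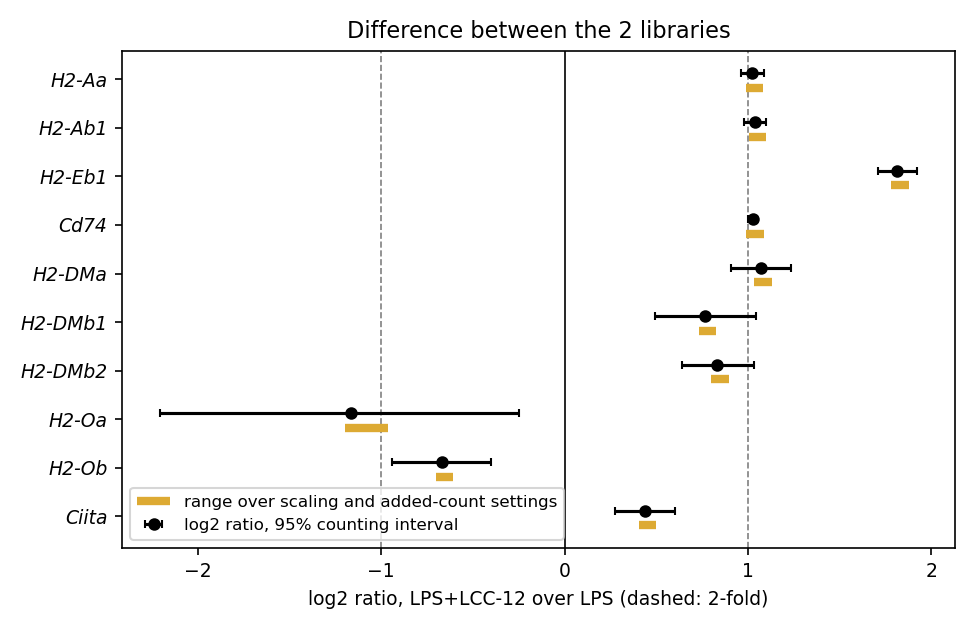
Log2 ratio of LPS+LCC-12 over LPS for each member, with the exact 95% counting interval (black) and the range over the scaling and added-count settings (yellow). H2-Eb1 stands at 1.81; H2-Aa, H2-Ab1, Cd74 and H2-DMa lie next to the 2-fold line, and H2-Ob and H2-Oa are below 0.

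H2-Aa, H2-Ab1, Cd74 and H2-DMa were between 2.03-fold and 2.10-fold higher, just past the limit, and H2-DMb2 and H2-DMb1, at 1.78-fold and 1.70-fold, lay inside it. With upper-quartile scaling 3 members were at least 2-fold higher in place of 5, against 3.66% of all genes. H2-Aa and Cd74 were then at 1.98-fold and 1.99-fold. With a 3-fold limit, 1 member, H2-Eb1, was counted, and the share of all genes at that limit was not determined.

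Levels were also compared between members per kilobase of annotated exons. With LPS, Cd74 had 213 CPM per kilobase, H2-Ab1 28.4, H2-Aa 16.6 and H2-Eb1 9.85. With LPS+LCC-12 the same genes had 433, 58.2, 33.8 and 34.6 CPM per kilobase. On this scale H2-Eb1 was below H2-Aa with LPS and overlapped it with LPS+LCC-12, where their exact Poisson intervals were 33.5 to 35.9 and 33.0 to 34.6. Per kilobase of coding sequence, H2-Eb1 was below H2-Aa in both libraries, at 20.7 and 82.3 CPM with LPS and 72.9 and 167 CPM with LPS+LCC-12. The H2-DM genes followed in both libraries, between 2.13 and 3.90 with LPS and between 3.63 and 6.95 with LPS+LCC-12. Ciita and H2-Ob were next and overlapped with LPS, at 1.15 (1.06 to 1.25) and 1.13 (1.01 to 1.27) CPM per kilobase, but not with LPS+LCC-12, at 1.56 (1.45 to 1.68) and 0.711 (0.612 to 0.821). H2-Oa was lowest in both, at 0.470 and 0.206. Per coding kilobase, H2-Ob was above Ciita with LPS (6.48 and 2.93 CPM) and close to it with LPS+LCC-12 (4.07 and 3.97 CPM). Intervals were not computed on that length. The order of these genes thus depends on the length used. Cd74 and H2-Ab1 were first and second by each of the 3 lengths in both libraries.

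The 8 members other than Cd74 and Ciita lie within 224 kb of chromosome 17, together with genes of MHC class I peptide supply. From H2-Oa to H2-Eb1 the annotation holds 21 genes present in the table, and 6 of those that are no member had 50 or more counts. All 6 had ratios below 0, where the median log2 ratio over all genes was 0.02. None of them was at least 2-fold lower, against 6.65% of all genes. Psmb9 and Psmb8, subunits of the immunoproteasome, had log2 ratios of -0.47 (2180 and 1520 counts) and -0.24 (8813 and 7239 counts). Tap1 and Tap2, which pump peptides to class I molecules, had -0.65 (9452 and 5832 counts) and -0.41 (4420 and 3228 counts). The noncoding gene Gm15821 had -0.53 (-1.07 to 0.001), on 76 and 51 counts, with an interval that included 0. Brd2, a bromodomain gene that shares 360 exon bases with H2-DMa on the opposite strand, had -0.27 (15577 and 12531 counts), the opposite sign to H2-DMa. Every gene with enough counts from Psmb9 through H2-Ob was therefore below 0, and the H2-DM genes on one side and H2-Ab1, H2-Aa and H2-Eb1 on the other were above 0.

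**Figure D3:**
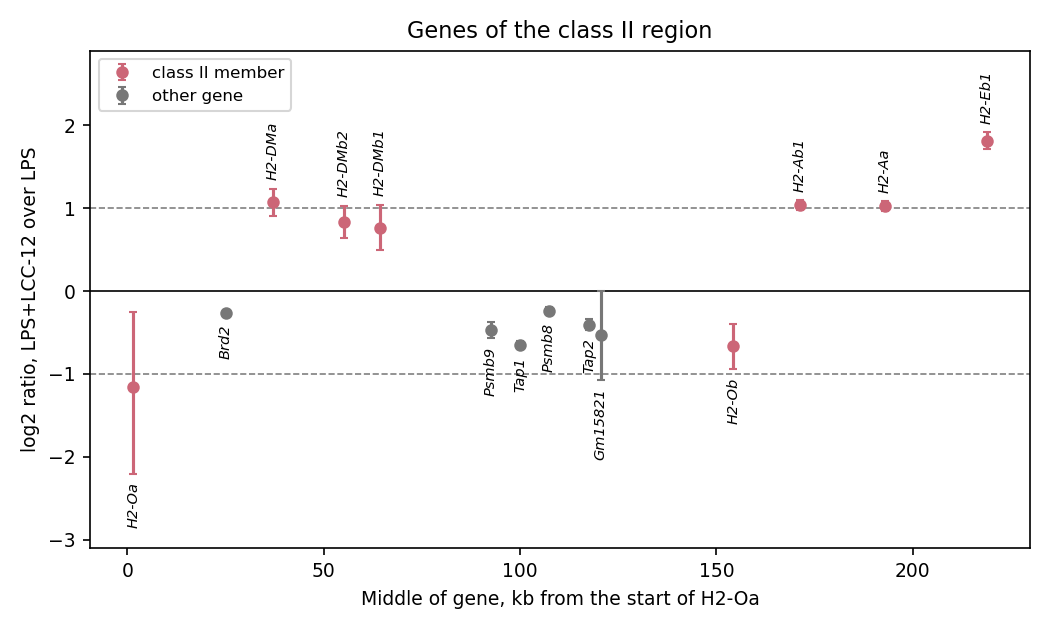
Log2 ratio of LPS+LCC-12 over LPS against the middle of each gene, in kb from the start of H2-Oa, for members (red) and for other genes with 50 or more counts (grey). Bars are 95% counting intervals. The grey genes lie between -0.65 and -0.24, and the members lie on both sides of 0.

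Transcripts of the proteins on which CIITA docks, and of its cofactors, differed by less than 2-fold between the libraries. Protein levels were not measured. This list held the RFX subunits Rfx5, Rfxap and Rfxank, which bind the X box, Creb1, the NF-Y subunits Nfya, Nfyb and Nfyc, which bind the Y box, and the cofactors Crebbp, Ep300, Kat2b and Smarca4. All 11 were within 2-fold, 10 of them below 0, with a median log2 ratio of -0.11. With the most counts over both libraries, Ep300, a histone acetyltransferase, had -0.38, and Smarca4, a chromatin remodelling ATPase and the only gene of the list above 0, had 0.22. Rfx5, at 769 and 598 counts, had a log2 ratio of -0.32 (-0.47 to -0.16).

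Among 16 genes that control Ciita or answer to the same signals, 1 was at least 2-fold higher, against 4.01% of all genes. Another 2 were at least 2-fold lower, against 6.65% of all genes. For a list of 16 genes, these counts were not far from those shares. The median log2 ratio of the list was -0.27. Irf4, a transcription factor of dendritic cells, B cells and alternatively activated macrophages, had 342 and 1553 counts and was 4.68-fold higher (4.17 to 5.29). Socs1, an inhibitor of interferon receptor signalling that interferon itself induces, had 1770 and 463 counts and was 3.70-fold lower (3.34 to 4.11). Il10, an anti-inflammatory cytokine known to reduce surface class II, had 263 and 114 counts and was 2.23-fold lower (1.79 to 2.81). Of the interferon-gamma pathway leading to Ciita, Jak2 and Irf1 were within 2-fold: Jak2 had a log2 ratio of -0.58 and Irf1 had -0.24. Nlrc5, the counterpart of Ciita for class I genes, had 12909 and 7688 counts and a log2 ratio of -0.70 (-0.74 to -0.66), the opposite sign to Ciita.

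Genes that act on class II after transcription were mostly within 2-fold. The 10 genes of endosomal processing were all within 2-fold, with a median log2 ratio of 0.01. Ctsb and Ctss, cathepsins of which the latter trims the invariant chain, had -0.02 and 0.03. The aspartic protease Ctse was the lowest of the list at -0.90, from 2269 to 1179 counts. Of 3 genes of surface turnover none passed 2-fold: March1, a ubiquitin ligase that sends class II for degradation, had 6537 and 4672 counts and a log2 ratio of -0.44 (-0.49 to -0.38). March8, a related ligase, had 0.05, and Cd83, which opposes March1, had -0.41. Of 5 ligands and receptor partners of CD74 only Cxcr2, which also marks neutrophils, passed 2-fold, at 2.81-fold lower. Among all genes, 6.65% were at least 2-fold lower. The ligand Mif had a log2 ratio of -0.20 and the coreceptor Cd44 0.21. Cd4 and Lag3, T cell surface proteins that bind class II, had 17 and 20 counts after LPS and 2 and 15 after LPS+LCC-12, too few for the rule.

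**Figure D4:**
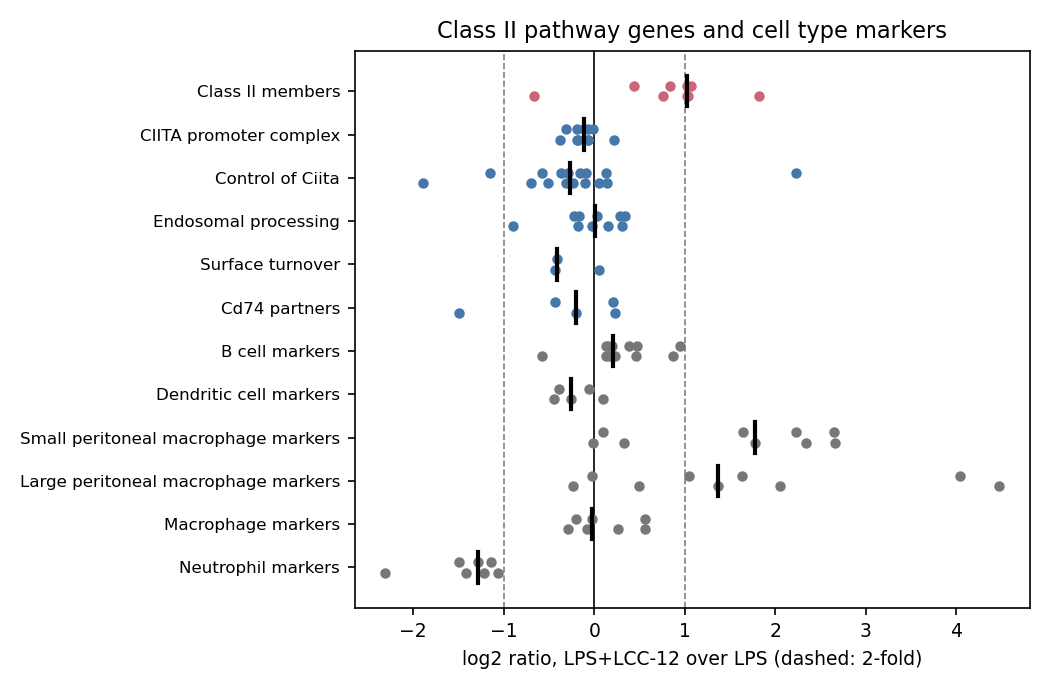
Log2 ratio of LPS+LCC-12 over LPS for each gene with 50 or more counts in the class II members (red), the pathway lists (blue) and the cell type marker lists (grey). Black bars are list medians, and dashed lines mark 2-fold. The members' median is 1.02, and the medians of the 5 pathway lists drawn lie between -0.41 and 0.01. The other class II loci (2 genes) are not drawn, nor are Cd4 and Lag3.

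Marker lists of other class II-bearing cells differed less than the class II genes in their sums. All 12 B cell markers were detected, none passed 2-fold, 11 were above 0, and their summed level was 224 CPM after LPS and 237 after LPS+LCC-12. The median log2 ratio was 0.21, from -0.58 for Cd22 to 0.95 for Cr2, and Ighm gave 96.1 and 105 CPM of the sums. B cells are known to express H2-Ob, and their part in its difference was not tested. Of 10 dendritic cell markers 5 had enough counts, none passed 2-fold, and the sum was 74.8 and 77.4 CPM, most of it from Clec10a, which macrophages also express. The median log2 ratio of the 5 was -0.26, with 4 below 0, among them Batf3 at -0.45 and Flt3 at -0.38. Of the dendritic cell genes with too few counts, Clec9a and Siglech were at 0 in the LPS library and had 2 and 12 counts in the other. Xcr1 went from 10 counts to 1, Itgae from 37 to 12, and Cd209a had 1 count and 0.

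Marker lists of small and large peritoneal macrophages were higher alongside the class II genes, and that of neutrophils was lower. The lists were chosen with earlier results of these data known, so their counts describe the libraries and are no independent support. Of 9 small peritoneal (or monocyte-derived) macrophage markers 6 were at least 2-fold higher, against 4.01% of all genes. Their median log2 ratio was 1.78, with sums of 535 and 822 CPM over the 9. The sums were carried by Ccr2, at 365 and 360 CPM, while Retnla, Cd226 and Cx3cr1 had log2 ratios of 2.66, 2.65 and 2.34. Irf4 is one of the 6 and also one of the genes controlling Ciita. Of 9 large peritoneal macrophage markers 6 were at least 2-fold higher, against the same 4.01%. The median log2 ratio of this list was 1.37, with sums of 1192 and 1896 CPM. Adgre1 gave 839 and 825 CPM of these sums, while Cd5l and Timd4, the highest of the list, had log2 ratios of 4.47 and 4.03. Gata6 was within 2-fold at 0.49, and Adgre1 and Selp were the 2 below 0, at -0.02 and -0.24. The 7 general macrophage markers were all within 2-fold, 3 above 0 and 4 below, with a median log2 ratio of -0.02. Their sums were 6454 and 7886 CPM, of which Lyz2 gave 3049 and 4508 CPM. All 7 neutrophil markers were at least 2-fold lower (against 6.65% of all genes), with sums of 8401 and 2999 CPM. The part of these cell types in the class II difference was not tested. Markers of T cells (3.58 and 1.82 CPM), mast cells (14.1 and 4.69 CPM) and mesothelium (7.49 and 1.32 CPM) had small sums, lower with LCC-12. Of their 5 genes each, 1, 4 and 4 had enough counts for the rule, and 0, 4 and 4 of these were at least 2-fold lower. Cd3e, with 31 and 4 counts, and Cd4 were too low to be counted. Outside the dendritic cell list, no marker of these lists was at 0 in either library.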

How the data were processed

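RNA from 1 pool of sorted small peritoneal macrophages per group was sequenced. According to the labels, total RNA (10 ng) went into stranded libraries with ribosomal depletion and 12 PCR cycles; the molecule field names polyA RNA instead. Values were deposited as raw, unnormalized counts for each gene. The submitters' processing notes name STAR and mm10; how reads were assigned to genes and strands is not given in the sources used here, so overlapping genes are uncertain. Columns were tied to groups by library codes.

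Identifiers were matched to GENCODE M21 (GRCm38), 55394 of 55487. TMM scaling used edgeR 4.0.16 under R 4.3.3, adding 0.5 counts per library in proportion to scaled size. Ratios have exact 95% Clopper-Pearson intervals from the split of counts, levels per kilobase have exact Poisson intervals, and within-library proportions have exact conditional intervals. PCR copies are not independent molecules. The scripts were tested on simulated data. Alternatives were other scalings (DESeq2 1.42.0 size factors among them), thinning, added counts, count minimums, fold limits, list means and gene lengths.

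All members were named. Of the other lists, up to 4 genes past 2-fold or the 2 most abundant were named, and region genes with 50 or more counts; Rfx5, Jak2, Irf1, Nlrc5, Ctse, Cd83, Mif, Cd44, Cd4, Lag3 and marker genes were named for their role after their values were seen. Some listed genes are not reported here by name. The members and lists were chosen with earlier results of these data known.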

Additional observations from a re-analysis of the deposited data

How the results depend on the processing

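With 1 library per group, nothing here measures variation between pools of mice. No paired analysis was possible because each group has 1 library. Each member kept its sign under all 7 scaling, thinning and added-count settings, with log2 ratios of 1.78 to 1.87 for H2-Eb1, 0.99 to 1.08 for H2-Aa, 0.99 to 1.09 for Cd74, 0.41 to 0.50 for Ciita and -0.70 to -0.61 for H2-Ob. The number of members at least 2-fold higher was 5, against 4.01% of all genes. With upper-quartile scaling it became 3, against 3.66% of all genes. The number counted as higher was 1 with a 3-fold limit, 1 when the whole interval had to lie beyond 2-fold and 7 with a 1.5-fold limit. The number at least 2-fold lower was 0, against 6.65% of all genes, and became 1 with a 1.5-fold limit (H2-Ob) and 1 with a count minimum of 1 or 10 (H2-Oa). The shares of all genes under these other limits and count minimums were not counted, so these numbers have no background beside them. The median of 1.02 became 0.93 with a count minimum of 1 or 10, and the mean was 0.82. By length of the longest transcript 4 of the 10 members changed place in the LPS order, and by coding length 5 did; per coding kilobase H2-Eb1 was below H2-Aa in both libraries. H2-Oa, with 33 and 14 counts, is limited by depth. Summing H2-DMb1 and H2-DMb2, an alternative chosen after seeing the data, left 5 members at least 2-fold higher.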
